A study of Mus musculus with 6 samples.

Results

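The replication-dependent histone genes were examined in knee cartilage of miR-455 null and wild-type (WT) mice. The genes were chosen by name: every protein-coding gene whose GENCODE M21 symbol begins with Hist1h, Hist2h, Hist3h or Hist4h. This gave 67 genes of the 36711 gene identifiers in the expression tables, of which 6 encode the linker histone H1, 18 encode H2A, 18 encode H2B, 12 encode H3 and 13 encode H4. This rule uses no measured value, but the family was chosen with earlier results of these data known.

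RNA sequencing was performed on 3 libraries from miR-455 null mice and 3 from WT mice, all aged 3 months and of the C57/Bl6 strain. The null mice were made by CRISPR-Cas9 and carry a small germline deletion that removes part of both mature arms of the microRNA. Tissue came from the hind limb, where the cartilage of tibia and femur was dissected, and 2 knees were combined for each RNA preparation. Nothing in the sources says whether each library came from a different animal, and p-values here reflect only the variation among the 6 libraries. The microRNA itself was not analysed here, so the genotype labels were not checked against it. The sources also do not say whether poly(A)+ RNA was selected.

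Core histones H2A, H2B, H3 and H4 form the protein spool of the nucleosome, and H1 binds the DNA that enters and leaves it. Replication-dependent histone genes supply these proteins when DNA is copied in S phase. Their mRNAs are unusual in ending at a conserved stem-loop in place of a poly(A) tail; the stem-loop binding protein SLBP recognises it, and loss of the mRNA follows quickly when replication stops. Some of these genes also make a longer, polyadenylated mRNA, mainly in cells that have left the cell cycle. In cartilage the dividing cells are mostly those of the growth plate, whereas marrow that adheres to the bone is rich in dividing blood cell precursors.

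The stem-loop is shown first because it is the element the family shares. An exact inverted repeat of 6 bases around a loop of 4 bases was searched for in the 150 bases of annotated transcript after the stop codon. It was found in 46 of the 67 genes, beginning between 22 and 59 bases after the stop. The other 21 include 15 genes whose annotated transcript ends within 2 bases of the stop codon, so that the annotation leaves no room for it. The 46 genes carried 8 different words, given here as DNA from the GENCODE transcripts, 5′ to 3′, with the stem in capitals and the loop in lower case.
Hist1h1c and 25 other genes: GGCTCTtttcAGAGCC
Hist1h4n and 6 other genes: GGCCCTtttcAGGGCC
Hist1h2bk and 5 other genes: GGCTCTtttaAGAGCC
Hist1h4i and Hist2h4: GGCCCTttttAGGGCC
Hist1h4b and Hist1h4j: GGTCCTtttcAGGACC
Hist1h4a: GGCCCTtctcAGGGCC
Hist1h3g: GGCTCTtcttAGAGCC
Hist2h2ac: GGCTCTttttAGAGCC
The commonest word was held by 3 H1, 10 H2A, 8 H2B and 5 H3 genes and by 0 H4 genes. All 12 H4 genes with a stem-loop had a stem of other letters than that word. In mm10 the stem-loop of Hist1h1c lies at chr13:23739512-23739527 on the plus strand and that of Hist1h4i at chr13:22040966-22040981 on the minus strand, both in the annotated 3′UTR.

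The genes are packed closely in the genome. In mm10, 54 of them lie on chromosome 13, in one group of 23 genes at chr13:21715763-22043676 and another of 31 genes at chr13:23531050-23934851. A further 10 lie at chr3:96219865-96270132, 2 on chromosome 11 and 1 on chromosome 6. The H2A and H2B genes included 12 pairs that lay head to head, with 1 gene on each strand and their starts next to one another. Both genes of such a pair share the DNA between them, but their levels could differ. Hist1h2ac and Hist1h2bc, with 251 bases between them, had mean abundances of 1.30 and 45.0 over the 6 libraries, a 34.6-fold gap, while Hist1h2bf and Hist1h2ad, with 185 bases between them, had 2.29 and 2.33. Abundances were read as per transcript length; levels of different genes also depend on shared sequence and on how RNA was selected, so these gaps are approximate.

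The RefSeq promoter of Hist1h2ac (H2ac6 in RefSeq; GRCm38.p6, chr13:23683910-23684209, minus strand) is printed as the one shared by the most unequal pair. Capitals mark CCAAT or its complement ATTGG at 3 places, the octamer core ATTTGCA or its complement TGCAAAT at 1 place, and TATAAA at 1 place.
Hist1h2ac promoter: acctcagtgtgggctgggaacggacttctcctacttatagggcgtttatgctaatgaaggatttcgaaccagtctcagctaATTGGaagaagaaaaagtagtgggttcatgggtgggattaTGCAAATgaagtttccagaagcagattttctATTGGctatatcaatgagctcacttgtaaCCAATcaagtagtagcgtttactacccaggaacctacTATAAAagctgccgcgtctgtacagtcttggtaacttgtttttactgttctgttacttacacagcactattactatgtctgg
RefSeq promoter windows of 300 bases matched 61 of the 67 genes. CCAAT was found on either strand in 52 of them (85.2%), against 37.4% of all 32851 promoters in the table. Every matched H1, H2A, H2B and H3 promoter had it (6, 17, 16 and 10 genes), but only 3 of the 12 H4 promoters did. TATAAA was found in 35 (57.4%, against 13.6% of all promoters) and GGGCGG in 23 (37.7%, against 35.7%). The octamer core, recognised by POU2F1 (Oct-1), was found in 13 (21.3%, against 4.02%), namely 7 H2A and 6 H2B promoters. These motifs were searched on both strands and do not overlap one another in the printed window; a match is a description of the letters only.

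Measured levels of the family were low in these libraries; how the RNA was selected, which is not stated, bears on how fully mRNAs without a poly(A) tail are captured. Of the 67 genes, 65 were above 0 in some library, and Hist1h2aa and Hist1h2ba were at 0 in every library. Mean abundance over the 6 libraries reached 10 for 10 genes and 20 for 6 genes, and it was under 5 for 40 genes. The whole family made up 0.0515%, 0.0351% and 0.0444% of total abundance in null libraries 1 to 3 and 0.0505%, 0.0848% and 0.0478% in WT libraries 1 to 3. The highest share was in WT 2 and the lowest in null 2. The reads behind each abundance were not reported, and with the depth unknown no counting error can be stated.

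Close copies limit what can be said of single genes. A stretch of 31 bases, counted at every position of the annotated transcripts, was unique to its gene for a median of 41.5% of positions, and 40 genes were under 50%. Reads from such genes can be divided among copies by the estimation, and single-gene values are uncertain for this reason. Sums over a class do not depend on division within the class, but they do on division with genes outside it.

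Libraries differed in ways that genotype does not explain, and these stand beside every result below. WT 2 had an alignment rate of 83.3%, against 89.4% to 92.6% in the null libraries and 91.2% and 91.8% in the other WT libraries. WT 2 was also the highest of the 6 libraries for 43 of the 57 histone genes that passed the filter on low values (abundance of at least 1 in at least 3 libraries), a share of 75.4%, where 10.8% of all 12804 genes tested were highest in WT 2. Whether these are linked was not tested. The main counts, the class sums and the histone genes at an unadjusted limma p under 0.05 are therefore also given without WT 2, apart from Hist1h4m.

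Summed over the family, abundance was 473, 343 and 437 in null libraries 1 to 3 and 574, 793 and 509 in WT libraries 1 to 3. The null libraries all lay below the WT libraries, and the ratio of means was 0.668, or 0.771 without WT 2. The 6 most abundant genes, Hist1h1c, Hist2h2aa2, Hist1h4i, Hist1h2bc, Hist3h2ba and Hist1h4n, carried 52.1% of the sum, and together they gave 291, 209 and 251 in null and 324, 275 and 280 in WT libraries, which overlap. The other 61 genes gave 182, 133 and 186 in null and 250, 518 and 229 in WT libraries, without overlap. WT 2 stood 2.16 times above the mean of the other WT libraries for these 61 genes, but at 0.910 of that mean for the 6 abundant ones. Hist1h4n and Hist2h2aa2 are among the 6, but their near-identical copies Hist1h4m and Hist2h2aa1 are among the 61. Both sums therefore depend on how reads were divided between these copies.

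**Figure D1:**
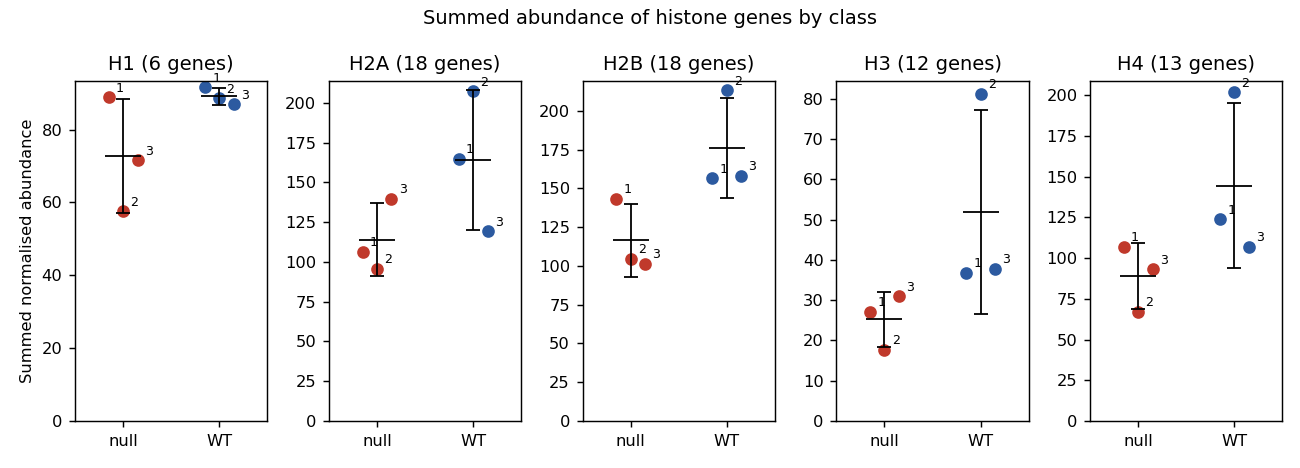
Summed normalised abundance of the genes of each histone class (vertical axes from 0, a scale for each class) in null and WT libraries; points are libraries with their numbers, and the horizontal line and bar are mean ± SD (n = 3 each). WT 2 is the highest point for H2A, H2B, H3 and H4 (207, 213, 81.3 and 202) but not for H1.

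By class, the linker histones gave 89.0, 57.6 and 71.7 in null and 91.6, 88.7 and 87.0 in WT libraries, and null 1 lay within the WT range (ratio of means 0.817, or 0.815 without WT 2). H2A genes gave 106, 95.6 and 140 in null and 165, 207 and 119 in WT libraries, also with overlap (0.696, or 0.802 without WT 2). H2B genes gave 143, 105 and 101 in null and 157, 213 and 158 in WT libraries. The H2B groups did not overlap, with a ratio of means of 0.662, or 0.740 without WT 2. H3 genes gave 27.1, 17.7 and 30.9 in null and 36.8, 81.3 and 37.8 in WT libraries, without overlap. The H3 ratio was the lowest of the classes, at 0.486, and it was 0.677 without WT 2. H4 genes gave 106.9, 67.0 and 93.3 in null and 124, 202 and 107.0 in WT libraries, so null 1 and WT 3 were nearly level (0.617, or 0.771 without WT 2). In bulk tissue, fewer cells that express these genes and less RNA per cell cannot be told apart.

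Gene by gene, limma called none of the 57 histone genes tested at an adjusted p under 0.05 (Benjamini-Hochberg over all 12804 genes, of which 4, or 0.0312%, were called). The smallest adjusted p among histone genes was 0.715, for Hist2h3b, followed by 0.780 for Hist1h3a. Before adjustment, 14 of 57 (24.6%) had a limma p under 0.05 with a lower mean in null, where 2.32% of all genes did; 0 had one with a higher mean, where 3.25% of all genes did. These 14 genes are Hist2h3b, Hist1h3a and 12 others, described below, whose adjusted p by limma was 0.812 each. The 3 null values all lay below the 3 WT values for 16 genes (28.1%, against 5.11% of all genes), and above them for 0 (6.25% of all genes). Both the 14 and the 16 include Hist1h4m, which passed the filter through the WT libraries alone. Its value is uncertain, as described below, so it adds no support to these counts. The log2 fold change, null over WT on log2(abundance + 0.5), was below 0 for 55 of 57 (96.5%, against 46.0% of all genes). Its median was -0.79 over the histone genes and 0.02 over all genes.

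Leaving out WT 2 reduced this difference in size. The median over the 55 histone genes then tested was -0.46, with 47 below 0 (46.7% of all genes) and 10 at an unadjusted limma p under 0.05 with a lower mean in null (1.49% of all genes). The null values lay below both WT 1 and WT 3 for 19 of the 57 genes, which 9.02% of all genes did. These 19 also include Hist1h4m, which adds no support to this count either. The exceptions with a log2 fold change above 0 in the full fit were Hist1h2ad (0.08 ± 0.26, SE) and Hist1h4n (0.10 ± 0.47).

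**Figure D2:**
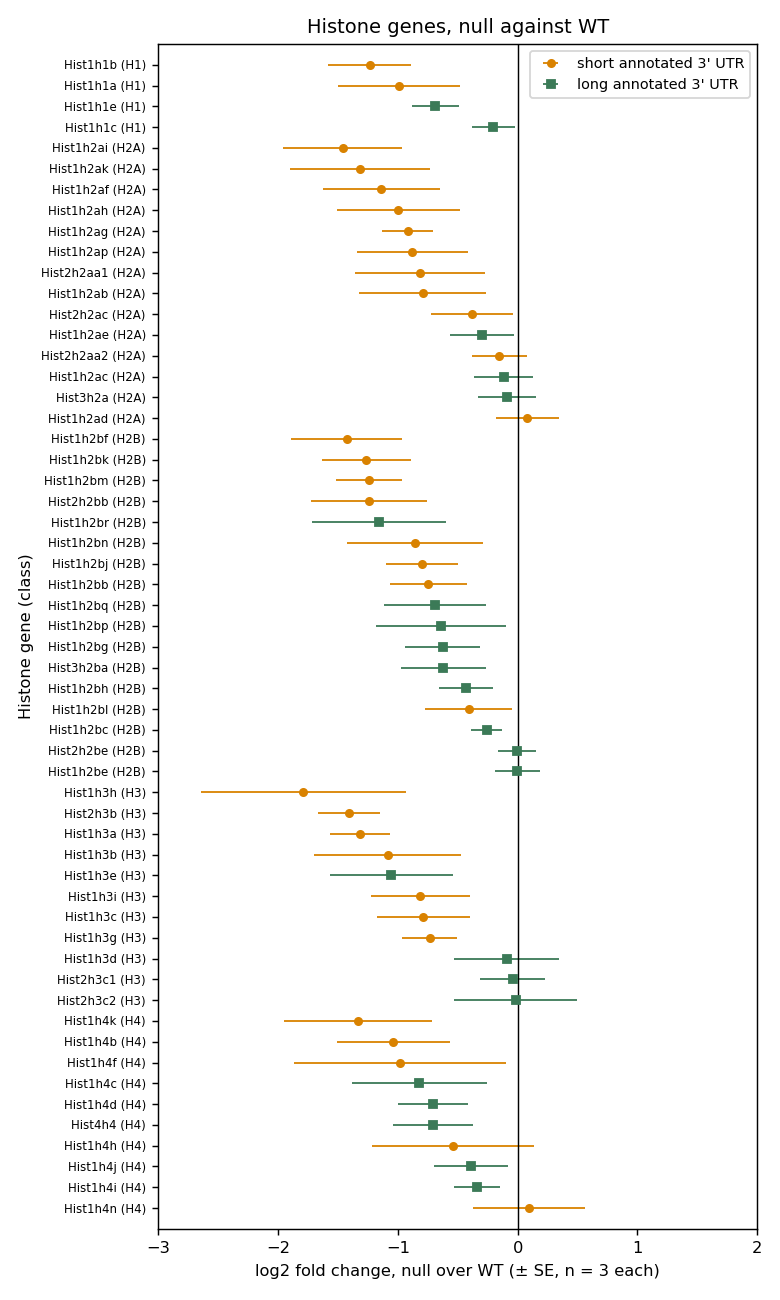
Log2 fold change, null over WT, ± SE (horizontal axis, n = 3 each) for 56 histone genes that passed the filter, in rows grouped by class and coloured by short or long annotated 3′ UTR; Hist1h4m is left out because its null libraries are all listed at 0. Points lie left of 0 for all but Hist1h2ad and Hist1h4n.

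Among the linker histones, Hist1h1c (H1.2) was the most abundant gene of the family, with 83.8, 53.7 and 64.7 in null libraries 1 to 3 and 83.4, 69.5 and 76.9 in WT libraries 1 to 3. The groups overlapped, and WT 2 was the lowest WT library. Hist1h1b (H1.5) gave 2.64, 1.78 and 2.51 in null and 3.95, 10.8 and 5.10 in WT libraries. Its null values were all lower, with WT 2 far above the rest (log2 fold change -1.24 ± 0.35, SE; -0.84 without WT 2). Hist1h1e (H1.4) gave 1.37, 1.15 and 1.42 in null and 1.98, 3.00 and 2.35 in WT libraries (log2 fold change -0.69 ± 0.20; -0.55 without WT 2). Its groups were also separate, and the WT libraries were closer together than for Hist1h1b. Hist1h1a (H1.1) gave 0.512, 0.644 and 2.58 in null and 1.70, 4.65 and 1.97 in WT libraries, where null 3 lay above 2 of the WT values. Hist1h1d (H1.3), which did not pass the filter, reached at most 0.809, and Hist1h1t, the testis H1, reached no more than 0.123.

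H2A genes were led by the near-identical pair Hist2h2aa2 and Hist2h2aa1, which lie on opposite strands of chromosome 3. Hist2h2aa2 gave 47.6, 43.9 and 77.7 in null and 70.4, 60.4 and 52.7 in WT libraries, and Hist2h2aa1 gave 3.40, 14.3 and 17.1 in null and 19.1, 19.5 and 13.6 in WT libraries. No stretch of 31 bases in Hist2h2aa2 was unique to it, and 89.7% of those in Hist2h2aa1 were shared with Gm20634, an overlapping non-coding gene not analysed here, so their single values are uncertain. The sum of the pair, which the second overlap can still affect, was 51.0, 58.2 and 94.9 in null and 89.4, 79.9 and 66.3 in WT libraries, which overlap. Hist3h2a, a single gene on chromosome 11, gave 13.9, 9.53 and 7.52 in null and 8.78, 10.7 and 12.9 in WT libraries, again with overlap. In the chromosome 13 groups, Hist1h2ag gave 3.46, 4.06 and 4.90 in null and 7.59, 10.8 and 6.73 in WT libraries. Its groups were separate with or without WT 2 (log2 fold change -0.92 ± 0.21, SE; -0.73 without WT 2). Hist1h2ai gave 2.29, 1.72 and 2.20 in null and 3.98, 16.3 and 4.14 in WT libraries, with WT 2 at 4.01 times the mean of the other WT libraries (-1.46 ± 0.50; -0.83 without WT 2).

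Of the 17 H2B genes tested, 5 had an unadjusted limma p under 0.05 with a lower mean in null, where 2.32% of all genes did. The 3 most abundant were not among them. Hist1h2bc gave 46.6, 37.0 and 39.5 in null and 48.7, 45.2 and 53.3 in WT libraries, with null 1 above WT 2. Hist3h2ba gave 29.4, 21.1 and 9.88 in null and 29.5, 26.3 and 29.7 in WT libraries, and Hist1h2bg gave 20.3, 10.7 and 8.29 in null and 18.9, 22.5 and 16.3 in WT libraries. In both, null 1 was level with the WT libraries and null 3 was lowest. Hist1h2bj gave 9.02, 9.74 and 5.68 in null and 11.4, 21.5 and 11.6 in WT libraries, and the groups were separate (log2 fold change -0.80 ± 0.30, SE; -0.51 without WT 2).

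The other 4 H2B genes of that kind were lower in level. Hist1h2bm gave 1.33, 2.44 and 1.08 in null and 3.41, 5.20 and 4.52 in WT libraries (log2 fold change -1.24 ± 0.28, SE), and its WT libraries were close to one another. Hist1h2bk gave 2.58, 1.73 and 5.60 in null and 8.90, 9.13 and 5.89 in WT libraries (-1.26 ± 0.37), with null 3 nearly level with WT 3. In these 2 genes WT 2 was 1.31 and 1.23 times the mean of the other WT libraries, and the log2 fold changes without it were -1.12 and -1.16. Hist2h2bb gave 2.39, 3.07 and 4.04 in null and 5.56, 18.8 and 4.78 in WT libraries (-1.24 ± 0.49), and Hist1h2bf gave 0.547, 0.866 and 1.20 in null and 2.27, 7.06 and 1.76 in WT libraries (-1.43 ± 0.46). WT 2 stood 3.64 and 3.51 times above the mean of the other WT libraries for these genes, and their log2 fold changes were -0.65 and -0.89 without it.

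H3 genes held the smallest p-values of the family. Hist2h3b gave 3.03, 2.87 and 3.49 in null and 8.45, 13.7 and 6.53 in WT libraries. The null values lay within a narrow band, and the lowest WT value was well above it (log2 fold change -1.41 ± 0.26, SE; adjusted p = 0.715, limma; -1.13 without WT 2). Hist1h3a gave 1.31, 1.63 and 1.55 in null and 3.45, 6.66 and 3.81 in WT libraries, the same arrangement (-1.31 ± 0.25; adjusted p = 0.780, limma; -1.05 without WT 2). Hist1h3g gave 2.86, 2.59 and 2.38 in null and 3.25, 6.17 and 5.01 in WT libraries (-0.73 ± 0.23; -0.55 without WT 2). Only 19.4%, 41.1% and 39.8% of 31-base stretches were unique to these 3 genes in that order, so their values also depend on how reads were divided. For Hist2h3b, 80.6% were shared with Gm20634, a gene outside the family. Hist1h3c gave 3.48, 3.04 and 5.74 in null and 6.57, 12.8 and 4.32 in WT libraries, and Hist1h3i gave 6.81, 2.03 and 4.27 in null and 4.91, 9.45 and 8.38 in WT libraries; both overlapped.

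H4 genes were led by Hist1h4i, with 58.2, 37.2 and 38.6 in null and 58.4, 49.3 and 59.1 in WT libraries, where null 1 was level with the WT libraries. Hist1h4k gave 3.93, 1.96 and 5.79 in null and 6.06, 26.6 and 5.69 in WT libraries, with WT 2 at 4.53 times the mean of the other WT libraries. Its log2 fold change was -1.34 ± 0.62 (SE), or -0.64 without WT 2. Hist1h4d gave 1.70, 0.928 and 1.58 in null and 1.78, 3.82 and 2.37 in WT libraries (log2 fold change -0.71 ± 0.30, SE; -0.45 without WT 2). Its null 1 and WT 1 values were almost the same.

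Hist1h4m, another H4 gene, stood apart. It was listed at 0 in all 3 null libraries and at 1.05, 28.0 and 11.8 in WT libraries 1 to 3; no fold is given because of the listed 0. Only 8.33% of its 31-base stretches were unique to it, and 91.7% were shared with Hist1h4n, which also carries the same stem-loop word. Hist1h4n gave 25.5, 16.6 and 21.0 in null and 34.0, 24.4 and 8.59 in WT libraries, lowest in WT 3, where Hist1h4m was at 11.8. Their sum was 25.5, 16.6 and 21.0 in null and 35.1, 52.4 and 20.4 in WT libraries, and these overlap. The value of Hist1h4m alone is therefore uncertain. Without this gene the median log2 fold change over the histone genes tested was -0.77.

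**Figure D3:**
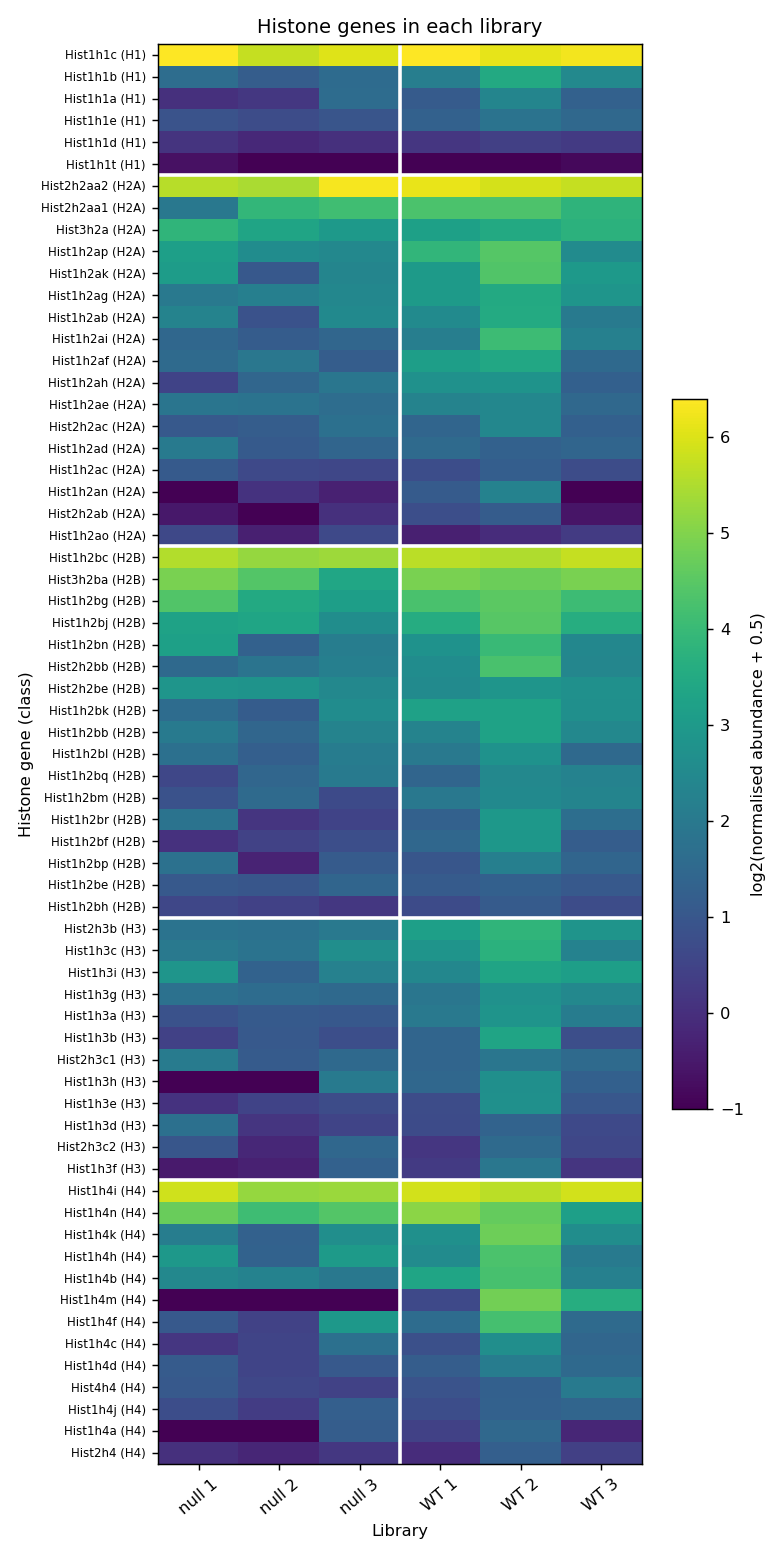
Log2(normalised abundance + 0.5) of the 65 histone genes above 0 in some library (rows, grouped by class and ordered by mean) in null libraries 1 to 3 and WT libraries 1 to 3 (columns); brighter is higher. The WT 2 column is brightest for many genes of low and middle level but not for the most abundant gene of each class apart from H3.

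The annotated 3′ end divided the family further. An annotated 3′UTR of at most 114 bases was counted as short (39 genes), and the next, of 150 bases or more, as long (28 genes); this division was chosen after the values had been seen. Of the 39 short ends, 22 held a stem-loop and 17 did not, and in 15 of these 17 the annotation stops within 2 bases of the stop codon, so a short end describes the annotation and not always the mRNA. Of those tested, WT 2 was the highest library for 31 of 34 genes with a short end and for 12 of 23 with a long end (10.8% of all genes). Among the short ends it was highest for 18 of the 21 tested with a stem-loop and for 13 of the 13 without one. The median of log2(WT 2 over the mean of the other WT libraries) was 1.08 for short and 0.40 for long ends, and -0.02 over all genes tested. The median log2 fold change, null over WT, was -0.99 for short ends (32 of 34 below 0) and -0.39 for long ends (23 of 23 below 0). Without WT 2 these medians were -0.61 (30 of 33 below 0) and -0.31 (17 of 22 below 0). Over all genes tested, 46.0% were below 0 in the full fit and 46.7% without WT 2. The difference between the kinds of end was not tested.

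Summed abundance of short-ended genes was 183, 148 and 231 in null and 292, 498 and 218 in WT libraries, and that of long-ended genes was 290, 195 and 206 in null and 282, 295 and 291 in WT libraries. Both overlap, since null 3 lay above WT 3 for short ends and null 1 above WT 1 for long ends. Within WT, the long-ended sum, which holds Hist1h1c, Hist1h4i and Hist1h2bc, was nearly level, whereas WT 2 was 1.95 times the mean of the other WT libraries for short-ended genes. By class, for short-ended genes, WT 2 was 2.42, 2.14, 2.07 and 2.84 times that mean for H1, H2B, H3 and H4 and 1.50 times for H2A, which holds the abundant Hist2h2aa pair. For long-ended genes WT 2 was between 0.883 and 1.135 times that mean for H1, H2A, H2B and H4, but 2.74 times for H3 (8.81, 3.92 and 8.66 in null and 5.78, 17.02 and 6.63 in WT libraries).

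**Figure D4:**
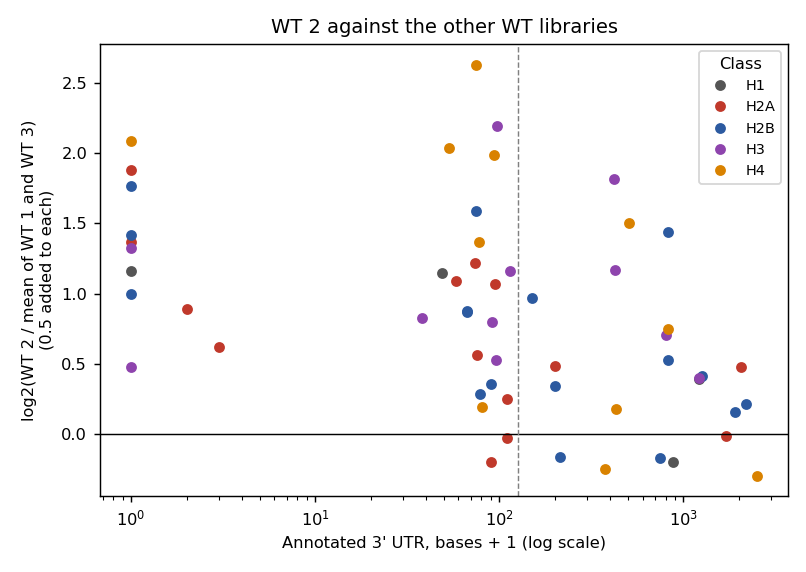
Log2 of WT 2 over the mean of WT 1 and WT 3, with 0.5 added to each (vertical axis), against the length of the annotated 3′ UTR plus 1 base (horizontal axis, log scale) for the 57 histone genes tested; points are genes coloured by class, and the dashed line parts short from long ends. The median is 1.08 left of the line and 0.40 right of it.

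For histone genes outside the rule the summed abundance overlapped between the genotypes, and single genes lay on either side of 0. Replication-independent histone genes are mostly expressed throughout the cell cycle or outside S phase, and most of their mRNAs carry poly(A) tails. All 11 listed here were tested, and 0 had a limma p under 0.05 (2.32% of all genes with a lower mean in null, 3.25% with a higher mean). Their summed abundance was 3585, 3569 and 3663 in null and 3645, 3309 and 3727 in WT libraries, with WT 2 the lowest, and 0 of them were highest in WT 2. H3f3a, which encodes H3.3, gave a log2 fold change of 0.09 ± 0.14 (SE), H2afz, which encodes H2A.Z, gave 0.05 ± 0.13, and H1fx gave -0.50 ± 0.23. The median was 0.05, with 6 genes above 0 and 5 below.

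Genes that act on histone expression were read from the same fit. Of all genes, 2.32% had a limma p under 0.05 with a lower mean in null and 3.25% with a higher mean. In the list for transcription of histone genes, 0 of 8 had such a p and the median log2 fold change was -0.07. Cdk2 and Ccne1 (cyclin E1), which drive this transcription at the start of S phase, gave -0.06 ± 0.10 and -0.29 ± 0.18 (SE). In the list for processing of the mRNA 3′ end, 0 of the 8 tested had such a p and the median was -0.08. Slbp, which encodes the protein that binds the stem-loops printed above, gave 136, 117 and 90.2 in null and 131, 126 and 138 in WT libraries, with overlap. Srrt and Sympk, a cap-complex partner and a scaffold of the cleavage complex, gave -0.20 ± 0.20 and -0.26 ± 0.15. Among the 3 decay genes, Upf1, a helicase, and Eri1, an exonuclease that trims the stem-loop, gave 0.09 ± 0.11 and -0.02 ± 0.12. WT 2 was the highest library for 3 of the 8 transcription genes, against 10.8% of all genes tested. It was highest for 0 of the 8 processing genes, 0 of the 3 decay genes and 1 of the 10 chaperone genes described next.

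Histone chaperones, which carry new histones to DNA, had 1 of 10 genes with a limma p under 0.05 and a higher mean in null (3.25% of all genes). This gene, Asf1b, gave 69.1, 81.8 and 74.6 in null and 59.8, 65.7 and 58.5 in WT libraries, higher in every null library. Its log2 fold change was 0.29 ± 0.11 (SE), with an adjusted p of 0.812 by limma. Rbbp4 and Hjurp gave 0.14 ± 0.13 and 0.29 ± 0.17 (log2 fold change ± SE). Among 20 S-phase genes, a list that holds Slbp again, 18 had a log2 fold change below 0 (46.0% of all genes did). Gins2, a subunit of the replicative helicase, was the 1 gene with a limma p under 0.05 (-0.35 ± 0.15). Of all genes, 2.32% had such a p with a lower mean in null. The median of the 20 genes was -0.19, and their sum was 1859, 1688 and 1291 in null and 1904, 1725 and 1800 in WT libraries. Null 3 was the lowest here, whereas null 2 was lowest for the histone sum, and 0 of the 20 were highest in WT 2. The sliding clamp Pcna and the ribonucleotide reductase subunit Rrm2 gave -0.19 ± 0.15 and -0.15 ± 0.17.

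Markers of the cells in the tissue also differed in level between the libraries. Over all genes tested, 46.0% had a log2 fold change below 0. Of 12 chondrocyte markers, all above 0 in at least 1 library, 10 passed the filter; their sum was 175.5, 225 and 136 in null and 129, 115 and 123 in WT libraries (median log2 fold change 0.49, 10 of 10 above 0; Col2a1 0.88 ± 0.33, Chad 0.37 ± 0.20, Comp 0.35 ± 0.19, SE). Erythroid markers were far more abundant, at 197753, 194472 and 112792 in null and 306357, 253979 and 280607 in WT libraries, with 11 of 11 below 0 (median -0.48; Hbb-bs -0.78 ± 0.34, Hba-a2 -0.74 ± 0.34, Hba-a1 -0.96 ± 0.32). B cell precursor markers were below 0 for 12 of 12 (median -0.66; Cd79b -0.74 ± 0.32, Cd79a -0.68 ± 0.38, Igll1 -0.71 ± 0.25), with sums of 321, 364 and 171 in null and 365, 411 and 565 in WT libraries. Neutrophil markers were above 0 for 12 of 12 (median 0.27; S100a9 0.42 ± 0.42, S100a8 0.34 ± 0.39, Mpo 0.29 ± 0.15), with sums of 75157, 119670 and 196700 in null and 115136, 78708 and 94450 in WT libraries, which overlap. Skeletal muscle markers were above 0 for 7 of the 7 tested (median 1.24; Mylpf 0.45 ± 0.36, Tnni2 0.98 ± 0.35, Myl1 1.49 ± 0.44), with sums of 166, 65.5 and 74.2 in null and 40.9, 54.1 and 56.0 in WT libraries. Before adjustment, 6 of 7 muscle and 2 of 10 chondrocyte genes tested had a limma p under 0.05 with a higher mean in null (3.25% of all genes). Such a p with a lower mean was found for 3 of 12 B cell precursor and 1 of 11 erythroid genes (2.32% of all genes). Of the 12 neutrophil genes, 0 had a limma p under 0.05. No gene of these 5 lists was called after adjustment (limma, smallest adjusted p = 0.812), and 0 genes of any of them were highest in WT 2. The part of cell makeup in the histone values was not tested.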

How the data were processed

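RNA was sequenced from knee cartilage of 3 null and 3 WT samples, grouped by the genotype label. Per the submitters' processing notes, the authors used FastQC, Trim Galore, kallisto and sleuth with mm10; no version is given in the sources used here. What the authors deposited as normalised counts is, for every gene, a signal of 0 or more that is not whole and totals 917819 to 1135956 per library; it was read as a length-normalised abundance. The deposited percent of aligned reads was used too. Depth is unknown. Of 36711 identifiers, 35945 matched GENCODE M21.

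Genes with abundance of at least 1 in at least 3 libraries were tested with limma 3.58.1 (R 4.3.3), on log2(value + 0.5) with a trended prior, genotype as the only term and Benjamini-Hochberg adjustment over 12804 genes; p-values are two-sided. The offset understates changes of low genes. On simulated data for this comparison (12804 genes), the fit recovered 47.8%, 86.6% and 95.5% of genes changed 2-, 4- and 8-fold. The changed genes were drawn at random from all genes tested, with noise independent between genes. Recovery was not measured for the histone genes, many of which were low and shared a high WT 2, so these shares do not apply to them. Python 3.11.15, pandas 2.3.3 and matplotlib 3.10.9 were used.

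The genes, the lists and the tests were chosen with earlier results of these data known. Histone genes were named by rule: the 3 most abundant of each class, and all tested genes at an unadjusted p under 0.05 or an adjusted p under 0.05; in other lists, the 2 most abundant genes and the one of smallest p. Ahsp of the erythroid list is not analysed here. Alternatives were other pseudocounts, filters and scalings, a replicate block, leaving out each library and, chosen after seeing the data, merging near-identical copies.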

Additional observations from a re-analysis of the deposited data

How the results depend on the processing

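Under every alternative run, 0 histone genes passed adjusted p 0.05 by limma, and the median log2 fold change of the histone genes tested stayed below 0, from -0.46 (without WT 2) to -0.91 (without WT 1). The number of histone genes at an unadjusted limma p under 0.05 was 14 of 57, all with a lower mean in null. The share of all genes with such a p and a lower mean was 2.32%, and it follows each count in brackets. The count was 4 of 22 with an abundance minimum of 5 (2.08%) and 13 of 53 with near-identical copies merged (2.31%). Hist2h3b and Hist1h2ag reached the minimum of 5 in WT libraries alone, with null values of at most 3.49 and 4.90. They therefore add no support to a count at that minimum. The count was 9 of 55 when libraries were scaled to the same total (0.773%). That scaling moved the median of all genes to 0.13, against a histone median of -0.68. With each library left out, the count ran from 10 of 55 without WT 2 (1.49%) to 22 of 56 without null 1 (7.52%). The number of all genes past adjusted p 0.05 was 4, against 1 with the minimum of 5, 2 with no filter, 1 with the replicate block and 0 to 8 when each library was left out. With the same-total scaling, 99 genes had an unadjusted p under 0.05 with a lower mean in null and 812 with a higher mean, against 297 and 416.

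The replicate block gave 16 of 57 histone genes at an unadjusted limma p under 0.05, all lower in null (1.94% of all genes), and 0 past adjustment. The correlations of same-numbered null and WT libraries, as deviations from the group means, were -0.15, 0.04 and -0.03, which gives no sign of pairing. Class sums kept their direction under every alternative run. For H2B, H3 and H4, every null sum lay below every WT sum. Leaving out a library could therefore not reverse these sums, and their kept direction is not a measure of stability.

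Of 386 alternative values of the 27 named histone genes, 380 stayed on the same side of 0 and of the threshold and 6 changed sign. The 14 named at an unadjusted limma p under 0.05 had every null value below every WT value. Leaving out a library or changing the pseudocount could therefore not change their sign, so the 380 is not a measure of stability. With each library left out in turn, Hist2h2aa2 ran from -0.41 (without null 3) to 0.0035 (without null 2), Hist3h2a from -0.32 (without null 1) to 0.11 (without null 3) and Hist1h4n from -0.465 (without WT 3) to 0.50 (without WT 1). Hist3h2a was 0.0256 with same-total scaling. Of 464 values of the other named genes, 9 changed sign. H2afz was -0.00208 with same-total scaling without globins and -0.00603 without WT 2. With same-total scaling Cdk2 was 0.0561 and Eri1 0.0961. With each library left out, Eri1 ran from -0.10 (without null 2) to 0.0211 (without null 1), Rrm2 from -0.26 (without null 1) to 0.0140 (without null 3) and S100a8 from -0.0183 (without null 3) to 0.68 (without null 1). The cause was not tested. The limits are the unknown depth, low abundances (30 of the 57 histone genes tested had a mean under 5), shared sequence, and 3 libraries a group.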
